A study of Mus musculus with 2 samples.

Results

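Krüppel-like factors are transcription factors that bind GC-rich and CACCC-type promoter elements through zinc fingers at their C terminus. 10 of these genes are described here, Klf2, Klf3, Klf4, Klf5, Klf6, Klf7, Klf9, Klf10, Klf13 and Klf16. They were chosen by name, among 18193 genes on the array, because signals of Klf4 and Klf6 had been seen to be lower in these same data, and the others are their relatives. The difference between the arrays for Klf4 and Klf6 is therefore a description and supports nothing by itself. All probe sets with one of these symbols as their only gene were taken, 34 of 34945 such probe sets.

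The cells were RAW264.7, a mouse macrophage-like line transformed by a leukaemia virus, made to express murine LXRα (gene Nr1h3) stably after chemical transfection. One culture condition was 24 h with DMSO, the solvent. The other was 24 h with GW3965 at 1 µM, a synthetic agonist of the liver X receptors (LXR), together with LG268 at 100 nM, an agonist of their partners, the retinoid X receptors. Total RNA of each condition was hybridised to 1 Affymetrix mouse array. Both conditions carried the introduced LXRα, neither ligand was given alone, and no array of the parental line was analysed here. With 1 array a condition there is no replicate spread between cultures and no test was possible, so "higher" and "lower" below compare 2 arrays.

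In the myeloid lineage, Klf4 takes part in monocyte differentiation and in the alternative activation of macrophages, and Klf2 restrains their inflammatory activation. Klf6 is an early-response gene that has been linked to inflammatory activation of macrophages. The family is often divided by partner proteins into activators such as Klf2, Klf4, Klf5, Klf6 and Klf7, repressors that recruit CtBP such as Klf3, and repressors that recruit Sin3A such as Klf9, Klf10, Klf13 and Klf16. Members recognise similar DNA and can act on one another's promoters.

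The promoters of Klf4 and Klf6 are shown because these 2 members had the lowest ratios of the family, and that of Klf2 because it is a close relative of Klf4 whose ratio was near 0. Each is the 250 bases before the annotated start, read 5′ to 3′ along the gene's own strand, from RefSeq on GRCm38.p6. The windows are chr4:55532476-55532725 on the minus strand for Klf4, chr13:5861239-5861488 on the plus strand for Klf6 and chr8:72318812-72319061 on the plus strand for Klf2. Capitals mark letters that match GGGCGG, the core of a GC box, or CACCC, both of them elements that Krüppel-like and Sp factors are known to bind, on either strand.
Klf4: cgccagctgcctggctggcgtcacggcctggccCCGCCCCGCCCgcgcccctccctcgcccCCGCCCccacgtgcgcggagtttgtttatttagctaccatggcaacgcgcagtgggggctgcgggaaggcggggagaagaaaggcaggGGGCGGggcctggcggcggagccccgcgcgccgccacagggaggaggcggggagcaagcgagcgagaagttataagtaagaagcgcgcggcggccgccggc
Klf6: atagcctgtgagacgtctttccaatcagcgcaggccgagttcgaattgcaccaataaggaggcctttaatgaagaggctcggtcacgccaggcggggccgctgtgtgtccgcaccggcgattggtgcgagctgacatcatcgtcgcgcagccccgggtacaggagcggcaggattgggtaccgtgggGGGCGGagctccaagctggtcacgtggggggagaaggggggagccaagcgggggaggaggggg
Klf2: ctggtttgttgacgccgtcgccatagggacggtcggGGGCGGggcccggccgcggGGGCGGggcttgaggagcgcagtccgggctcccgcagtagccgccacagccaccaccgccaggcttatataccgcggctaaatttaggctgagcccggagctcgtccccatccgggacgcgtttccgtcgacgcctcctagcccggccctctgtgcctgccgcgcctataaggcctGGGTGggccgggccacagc

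The GC content of these windows was 74.0% for Klf4, 64.8% for Klf6 and 71.2% for Klf2. The Klf4 window held 4 matches to GGGCGG, starting 217, 212, 189 and 101 bases before the start, and the first pair overlap by 1 base. Of 32851 promoter windows of the same length in the table, 32.7% held at least 1 such match and 4.09% held 4 or more. The Klf6 window held 1, at 63 bases, and the Klf2 window 2, at 214 and 195 bases. CACCC was found in 52.0% of all windows and once in that of Klf2, at 19 bases, and these letters were not in the windows of Klf4 and Klf6. CCAAT, the core of the element bound by the factor NF-Y, occurred 4 times in the Klf6 window, at 230, 200, 131 and 78 bases, and not in the other 2. 33.8% of all windows held CCAAT and 0.840% held 4 or more. The letters TGANTCA (an AP-1 element, in 6.75% of all windows), TGACGT (part of a cAMP response element, 6.47%) and AGGTCA (a nuclear receptor element, 14.0%) were in none of these 3 windows. All motifs were searched on both strands, and a match is a run of letters, not a measured binding site. Of the 10 members, 7 had a window in the table, 6 of them with GGGCGG and 5 with CACCC. Among these 7, the Klf3 window held the most matches to both, 6 to GGGCGG and 5 to CACCC. Of all windows, 0.886% held 6 or more matches to GGGCGG and 0.667% held 5 or more to CACCC.

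The deposited values are MAS5 signals, which combine the probes of a probe set into 1 intensity on a linear scale. Signals of different probe sets cannot be set against each other, since each has its own probes. A floor of 276.4, the median of all non-control probe sets over both arrays, was put under the signals before ratios were taken. A gene counted as measured if its brighter signal exceeded the floor, and 11077 genes did. Both arrays had a trimmed mean of 2500.0, and the median log2 ratio (ligands over DMSO) of the measured genes was -0.03. The macrophage type of the labelled line could be recognised, though not the line itself. All 9 macrophage markers examined, among them Csf1r, Lyz2 and Cd68, were above the floor on both arrays. None of 25 markers of lymphoid, granulocyte, fibroblast, endothelial or epithelial cells with a probe set was, and 5 of those were above it on 1 array. Abca1, the cholesterol exporter that LXR is known to induce, had signals of 2989 with DMSO and 81159 with the ligands. Nr1h3 itself had 3150 with DMSO and 5577 with the ligands, a log2 ratio of 0.82. Introduced and endogenous transcripts of it were not told apart. The only error that these arrays give is how far probe sets of one gene differ. From the 2 brightest probe sets of 4866 genes, both above the floor on each array, a single probe set's log2 ratio had an SD of 0.28. With these genes split by signal into 3 equal parts, it was 0.37 for the dimmest, 0.26 for the middle and 0.18 for the brightest part, and it holds no variation between cultures.

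Of the 34 Krüppel-like factor probe sets, 23 exceeded the floor on both arrays, 2 on 1 array and 9 on neither. Of those 23, 3 were at least 2-fold lower with the ligands (0.866% of all 18121 probe sets so measured) and 1 at least 2-fold higher (1.63%), and 5 were at least 1.5-fold lower (5.37%) and 2 at least 1.5-fold higher (6.73%). Of the 10 genes, 9 were above it on both arrays by the probe set of highest mean signal, which represents a gene below, and Klf5 on the DMSO array only. By these probe sets 1 of 10 members, Klf4, was at least 2-fold lower with the ligands and none at least 2-fold higher. Over all measured genes 0.776% were at least 2-fold lower and 1.67% at least 2-fold higher. At 1.5-fold the counts were 1 lower and none higher, where 4.77% of all measured genes were lower and 6.36% higher. Since members were picked for the low ratios of Klf4 and Klf6, nothing is read from these counts. The members' median log2 ratio was -0.10, beside -0.03 for all measured genes. Over the 8 members other than Klf4 and Klf6 it was 0.05, with 4 ratios above 0 and 4 below.

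**Figure D1:**
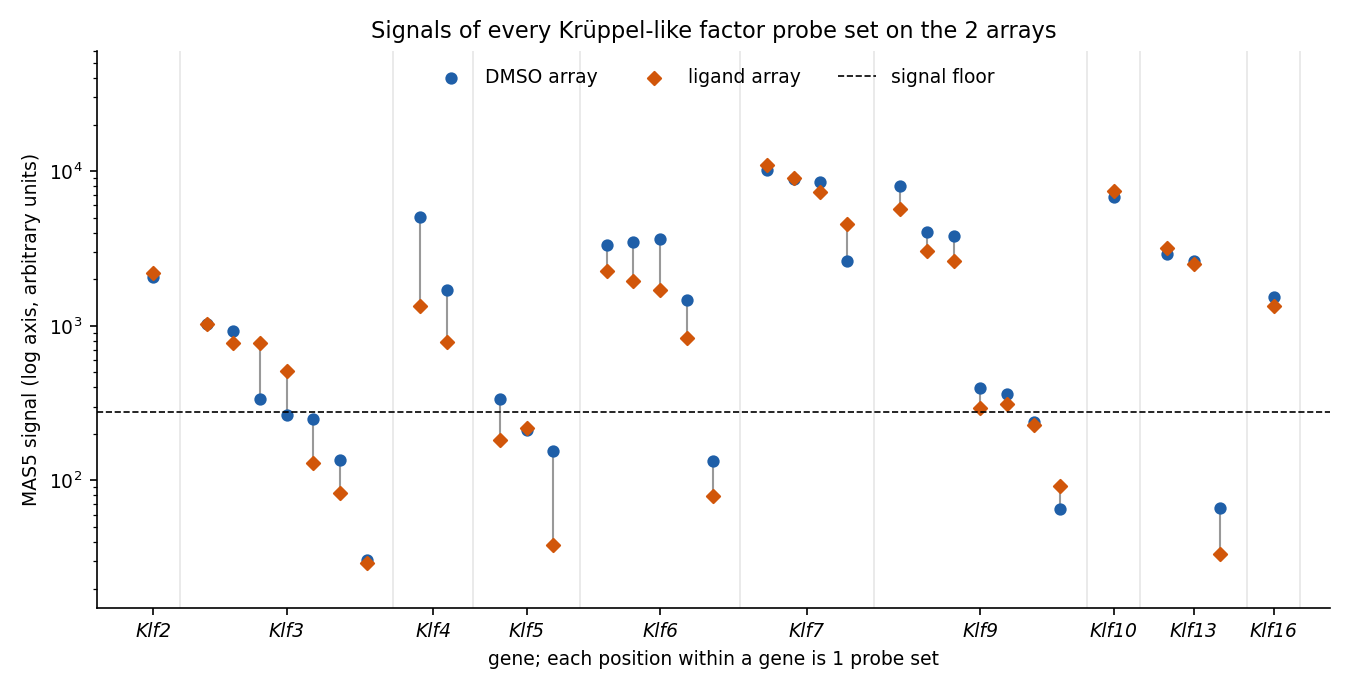
MAS5 signal (log axis) of all 34 probe sets of the 10 genes, 1 position for each probe set, with the DMSO array as circles, the ligand array as diamonds and the floor of 276.4 as a dashed line. Both Klf4 probe sets and the 4 brighter Klf6 probe sets have the DMSO circle above the ligand diamond, while signals of Klf2, Klf10 and Klf13 nearly coincide above the floor.

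Klf4 had the largest difference of the family. Its probe set 1417394_at read 5055 with DMSO and 1333 with the ligands. Its other probe set, 1417395_at, read 1713 with DMSO and 786 with the ligands. Both were lower on the ligand array, by 3.79-fold and 2.18-fold, or log2 ratios of -1.92 and -1.12. Both probe sets were designed from the same source sequence, so they are not independent measurements, and their ratios lie 0.80 apart on the log2 scale. Among the 4866 genes that had at least 2 probe sets exceeding the floor on each array, 7 (0.144%) had all of them at least 2-fold lower, and Klf4 is one of these. All probe sets were lower, by any amount, for 27.2% of the 4866. In RNA of a whole culture, fewer cells with Klf4 transcripts and less Klf4 RNA in each cell cannot be told apart. By its brighter probe set Klf4 ranked 7 from the lowest of the 11077 measured genes. Klf4 was chosen because these same signals had been seen lower, so nothing is read from this rank or from the shares above.

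Klf6 was lower by each of its 4 probe sets with signals over the floor. Probe set 1433508_at read 3641 with DMSO and 1699 with the ligands. Probe set 1447448_s_at had 3505 and 1958, in the same order. Probe set 1427742_a_at, the one of highest mean signal, had 3342 and 2252, and 1418280_at had 1460 and 832. The DMSO signal was the higher in all of them, and the log2 ratios were -1.10, -0.84, -0.57 and -0.81, with a median of -0.83. The SD of these 4 ratios, 0.22, was of the same order as that of probe sets of one gene in general. The representing probe set gave the smallest of the 4 differences, 1.48-fold, so Klf6 is not in the counts at 1.5-fold although the other 3 pass that fold and 1 passes 2-fold. The remaining probe set, 1459718_x_at, was below the floor on both arrays (133 and 78.7) and shares its source sequence with 1447448_s_at. The suffixes _s_at and _x_at mark probe sets that can also detect other transcripts. Of 832 genes that had at least 4 probe sets exceeding the floor on each array, 13.9% had all of them lower. Klf6 too was chosen for its lower signals, so nothing is read from this share.

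The other activators of the family showed smaller differences. Klf2, which keeps T cells and endothelium quiescent, read 2052 with DMSO and 2206 with the ligands by its only probe set. The log2 ratio, 0.10, was within the probe set SD of 0.37 for genes as dim as this. Klf7, known for its part in neuronal outgrowth, had 4 probe sets above the floor, all from one source sequence. The brightest gave 10128 with DMSO and 10938 with the ligands, a log2 ratio of 0.11, and 1449439_at and 1419356_at gave 0.02 and -0.20. Probe set 1419355_at stood apart from the other 3, with 2619 and 4580, a log2 ratio of 0.81. The direction for Klf7 thus differs between its probe sets. Klf5, a promoter of proliferation in epithelium and smooth muscle, reached 337 with DMSO and 182 with the ligands by its brightest probe set, at least 1.22-fold lower against the floor. Its other 2 probe sets were below the floor on both arrays, so Klf5 was near background in these cells.

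**Figure D2:**
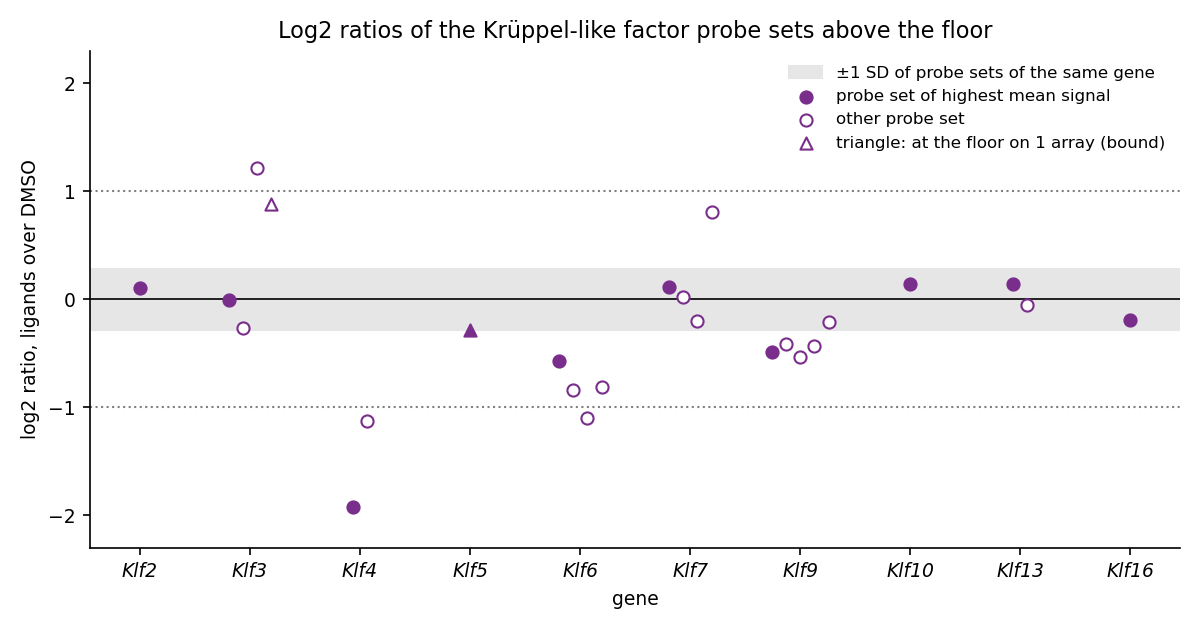
Log2 ratio (ligands over DMSO) of each Krüppel-like factor probe set above the floor on at least 1 array, with filled symbols for the probe set of highest mean signal, triangles for ratios bounded by the floor, a grey band of ±0.28 for the probe set SD and dotted lines at 2-fold. Klf4 lies at -1.92 and -1.12, the Klf6 probe sets at -0.57 to -1.10 and the Klf9 probe sets at -0.21 to -0.54, and the Klf3 probe sets spread from -0.27 to 1.21.

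Klf3, the repressor that works through CtBP, was the member whose probe sets disagreed most. The probe set of highest mean signal, 1454666_at, had 1033 with DMSO and 1031 with the ligands. Probe set 1431630_a_at had 926 and 770, and 1421604_a_at had 334 and 775, in the same order. The log2 ratios of these 3 were -0.00, -0.27 and 1.21. A further probe set, 1429360_at, was under the floor with DMSO (263) and at 508 with the ligands, at least 1.84-fold higher. The 2 probe sets with higher values on the ligand array had DMSO signals near or below the floor, and the other 3 Klf3 probe sets were below it on both arrays. The ratios of -0.00, -0.27 and 1.21 had an SD of 0.79. No direction can be given for Klf3 from these data.

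Of the Sin3A-recruiting repressors, Klf9 had the largest difference by the probe set that represents a gene. Klf9 is induced by glucocorticoids and thyroid hormone in many tissues. Its brightest probe set, 1428288_at, gave 7987 with DMSO and 5695 with the ligands. Probe sets 1456341_a_at and 1428289_at gave 4033 and 3034, and 3802 and 2620. The dimmer 1436763_a_at gave 395 and 292, and 1422264_s_at gave 361 and 313. All 5 were lower with the ligands, with log2 ratios from -0.54 to -0.21 and an SD of 0.13. None of them reached 1.5-fold. Of the 832 genes with at least 4 probe sets exceeding the floor on each array, 13.9% had all of them lower. Probe sets 1428288_at and 1428289_at were designed from the same source sequence, so they are not independent measurements. 2 further probe sets of Klf9 were below the floor on both arrays, and 1452723_at among them shares that source sequence.

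Klf10, Klf13 and Klf16 were nearly level between the arrays. Klf10, the early gene induced by TGF-β, had 6763 with DMSO and 7445 with the ligands, a log2 ratio of 0.14 from 1 probe set. Klf13, which drives the late expression of the chemokine gene Ccl5 in T cells, had 2900 and 3204 by one probe set and 2622 and 2521 by another. Those are log2 ratios of 0.14 and -0.06, so its 2 probe sets above the floor went opposite ways. Klf16, first described as a repressor acting on dopamine receptor promoters, had 1523 and 1337, a log2 ratio of -0.19 from 1 probe set. These differences were smaller than the probe set SD of 0.28.

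**Figure D3:**
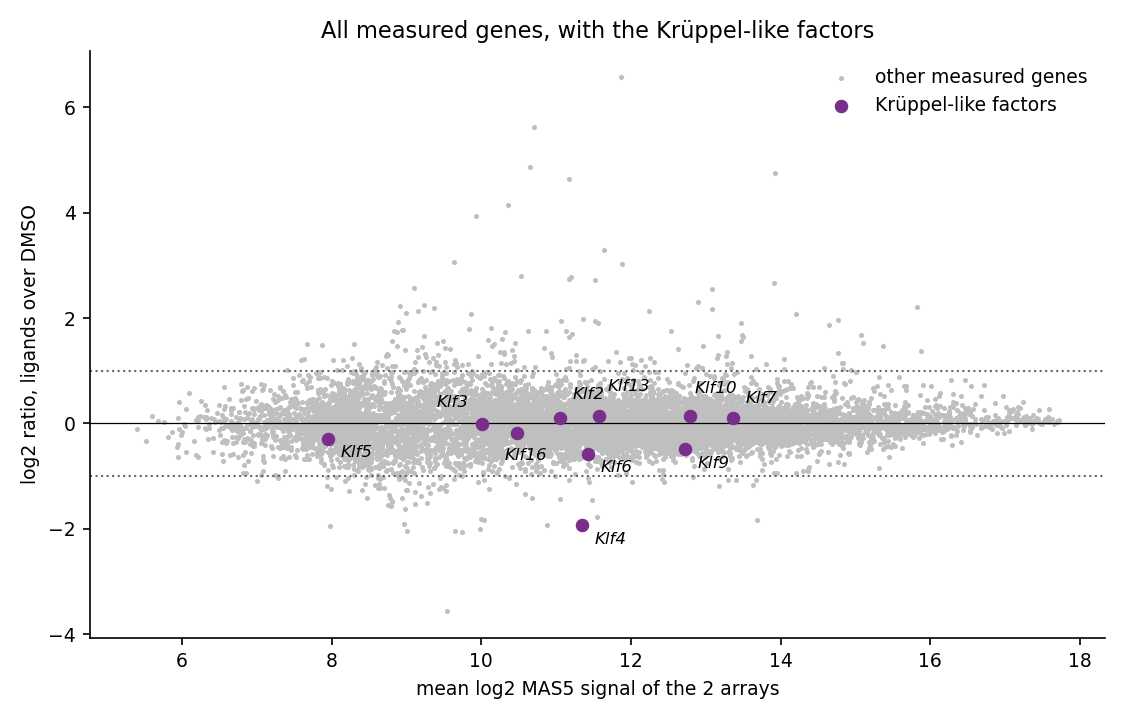
Log2 ratio (ligands over DMSO) against the mean log2 MAS5 signal of the 2 arrays for the 11077 measured genes, by the probe set of highest mean signal, with the 10 Krüppel-like factors labelled and dotted lines at 2-fold. Klf4 lies at -1.92, below the dense band of genes, and the other 9 lie between -0.57 and 0.14.

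The genes whose pair of signals lay nearest to that of Klf4 were looked up among 9429 named genes above the floor on both arrays, by Euclidean distance in log2 signal. They were Cxcl2, a neutrophil chemokine (5501 with DMSO and 1616 with the ligands), Dner (4735 and 1720) and Cth, the cystathionine-cleaving enzyme (3483 and 1288), at distances of 0.30, 0.38 and 0.54. For Klf6 they were Zfp958, Lonp2 and Ms4a6d, all within 0.02. A pattern over 2 arrays is no more than a pair of numbers. The distance also uses the signal levels of different probe sets, which cannot be set against each other. Nothing is therefore read from which genes lay nearest. A second probe set of Lonp2 was at a log2 ratio of 0.25, opposite to its first at -0.58. Second probe sets of Dner and Ms4a6d were at -2.15 and -0.72, beside -1.46 and -0.57 for their first.

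Related genes were examined in 4 lists. Of all measured genes, 0.776% were at least 2-fold lower and 1.67% at least 2-fold higher. At 1.5-fold, 4.77% were lower and 6.36% higher. Of the 16 other Krüppel-like and Sp factors, 13 had a probe set and 8 were measured, none of them at least 2-fold apart. Their median log2 ratio was -0.01. Sp3, a GC-box factor found in most cells, had signals of 3313 with DMSO and 5823 with the ligands, 1.76-fold higher. Klf12, another repressor that recruits CtBP, had 443 and 678, 1.53-fold higher. Sp1, which shares its binding sites with Sp3, had 24384 and 17484. Its 3 probe sets ran from -0.48, the ratio of these signals on the log2 scale, to 0.51. Klf1, the erythroid factor, had low signals of 421 and 291, a log2 ratio of -0.53. Sp4 was at -0.27, Klf11 at -0.01, and Sp6 and Sp7 crossed the floor on 1 array only, at 0.30 and -0.02. Klf14, Klf15, Klf17, Sp5 and Sp8 were below the floor on both arrays, and Klf8, Sp2 and Sp9 were not analysed here.

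All 16 cofactors known to act with Krüppel-like factors were measured, none at least 2-fold apart, and 13 had ratios below 0, as did 5963 of the 11077 measured genes. The median was -0.15, beside -0.03 for all measured genes. Wwp1, a ubiquitin ligase for Klf2 and Klf5, was the only one past 1.5-fold, where 6.36% of all measured genes were higher and 4.77% lower. It had 4423 with DMSO and 7627 with the ligands, 1.72-fold higher, and the ratios of its 3 probe sets lay between 0.56 and 0.79 in log2 terms. The acetyltransferase Ep300 was at -0.40, the deacetylase Hdac3 at 0.38 and the corepressor Ctbp2 at -0.33. Sin3a, the corepressor bound by Klf9 and its relatives, was at -0.13 with another probe set at 0.21.

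Upstream of the family, 13 of 14 genes of the ERK5-MEF2 route, which induces Klf2 and Klf4, and of the TGF-β-Smad route, which induces Klf10, were measured. None was at least 2-fold apart (0.776% of all measured genes were lower and 1.67% higher), and the median was -0.04. Tgfb1, the TGF-β1 ligand, had 13727 with DMSO and 21196 with the ligands, 1.54-fold higher, with its other probe set at 1.06. The transcription factor Mef2c had 33616 and 24935, a log2 ratio of -0.43, and all 5 of its probe sets were below 0, from -0.50 to -0.17. The receptor Tgfbr1 was at -0.36 and the shared Smad partner Smad4 at -0.24, with other Smad4 probe sets up to 0.03. Mapk7, which encodes ERK5, was at 0.24 and its kinase Map2k5 at 0.10, with other Map2k5 probe sets up to 0.64. The inhibitory Smad7 was below the floor.

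**Figure D4:**
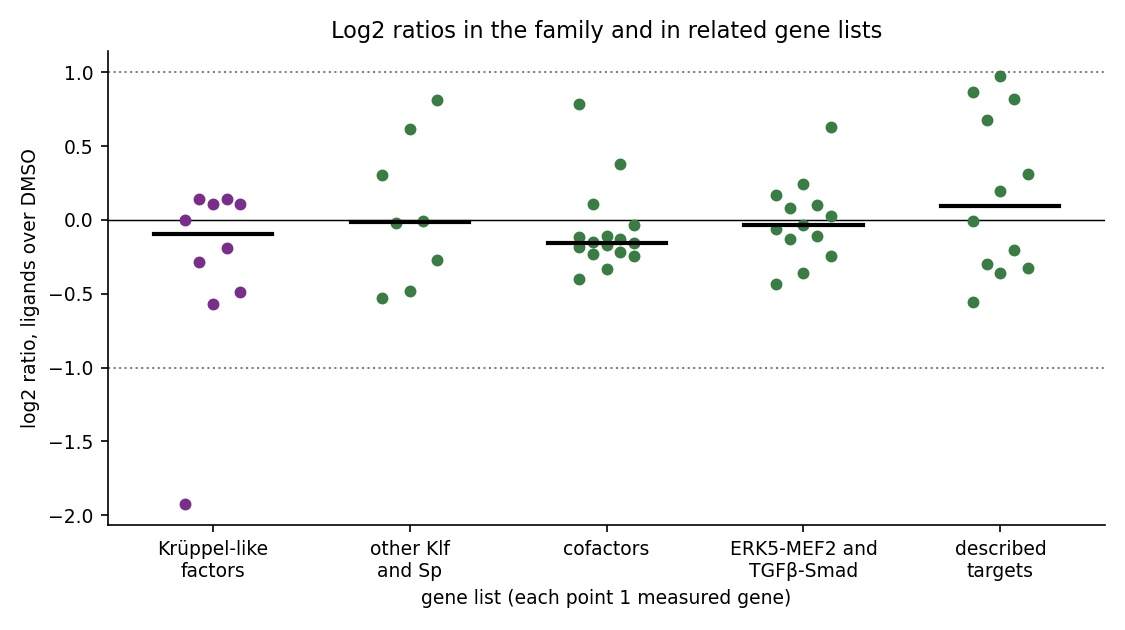
Log2 ratio (ligands over DMSO) of the measured genes in the family and in the 4 related lists, 1 point a gene by its probe set of highest mean signal, with black bars at the medians and dotted lines at 2-fold. The medians run from -0.15 for the cofactors to 0.09 for the described targets, and Klf4 at -1.92 is the only point beyond 2-fold.

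Of 24 genes described as targets of Klf2, Klf4, Klf6, Klf9 or Klf10 in any cell type, 20 had a probe set and 12 were measured. None was at least 2-fold apart. 4 passed 1.5-fold on the higher side and none on the lower, and 6 ratios were above 0 and 6 below, with a median of 0.09. The sphingosine 1-phosphate receptor S1pr1, a known Klf2 target in T cells, had 319 with DMSO and 627 with the ligands, 1.96-fold higher at low signals. Haem oxygenase Hmox1 had 7051 and 12832, 1.82-fold higher, and the plasminogen activator Plau had 593 and 1047, 1.77-fold higher. Another probe set of Plau was at 1.70 in log2 terms. The mannose receptor Mrc1, a marker of alternative activation, had 278 and 444, the lower of them just above the floor. Cyclin D1, Ccnd1, had 37626 and 25540, a log2 ratio of -0.56, and its 3 probe sets lay from -0.56 to -0.47. Cdkn1a, the cell cycle inhibitor that Klf4 and Klf6 induce, was at -0.32 by one probe set and 0.18 by the other. Arg1, Retnla and Chil3, markers of alternative activation linked to Klf4, were below the floor on both arrays, as were Thbd, Cdkn1c, F3, Igf1r and Smad7. Tgfbr1 and Smad7 stand in both of the last lists.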

How the data were processed

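Expression was measured on 2 Affymetrix mouse arrays, 1 for DMSO and 1 for the ligands, from RAW264.7 cells expressing LXRα. The deposited values are linear intensities, 1 per probe set. The submitters' processing notes name MAS5 with no version, and detection calls were not used. Since MAS5 scales every array to one trimmed mean, ratios are relative to most other genes and would miss a shift in the RNA content of the cells.

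Of 45101 probe sets, 34945 had 1 platform gene symbol, 932 several, 9160 none, and 64 were controls. Symbols were updated by gene identifier to the GRCm38.p6 annotation for 34741 probe sets. The probe set with the highest mean log2 signal stood for its gene. Signals were raised to a floor at the 50th percentile, and log2 ratios (ligands over DMSO) were taken. Where 1 signal was at the floor, the fold is a bound (at least N-fold). Calls were set at 2-fold and 1.5-fold. No p-value was computed, and the number of arrays limits the precision. The members and gene lists were chosen with earlier results of these data known. All members were named. Of each list, the up to 4 measured genes with the largest ratios were named, and all measured Klf and Sp relatives, and for Klf4 and Klf6 the 3 nearest genes. Other list genes quoted were chosen after their values were seen. The code was tested on simulated data for 2-fold calls of large changes, in genes above the floor on both arrays. Calls at 1.5-fold, dim genes and ratios bounded by the floor were not checked in that way. Promoters came from RefSeq. Alternatives were other floors, a pseudocount of 32, other scalings, other rules for probe sets, and a 3-fold threshold. Python 3.11.15, numpy 2.4.6, pandas 2.3.3 and matplotlib 3.10.9 were used.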

Additional observations from a re-analysis of the deposited data

How the results depend on the processing

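Klf4 was lower under every alternative run, with log2 ratios from -1.93 to -1.21, and so was Klf6, from -0.83 to -0.54. Every alternative reuses the 2 arrays on which both had been seen lower, so nothing is read from the unchanged direction. Klf4 was at -1.21 with the floor at the 75th percentile, where its ligand signal lies under the floor, and at -1.52 with the mean over its probe sets. Klf9 stayed between -0.49 and -0.42. The members' median ran from -0.11 to 0.01, over the members measured in each setting. The count of members at least 1.5-fold lower was 2 with the floor at the 25th percentile, with no floor and with the mean over probe sets. With the lower floor and with none the added member is Klf5 (-0.89 and -0.78), and with the mean it is Klf6. Averaging probe sets put Klf3 at 0.46. The count of members at least 2-fold apart did not differ, and at 3-fold it was still 1. The counts over all measured genes, given below, did differ. Since members were picked for the low ratios of Klf4 and Klf6, nothing is read from the steady member count. For the described targets, the median was -0.25 with the floor at the 75th percentile. Their count at least 2-fold higher was 1 with quantile normalization, with the mean over probe sets and with no floor, where 1 was also at least 2-fold lower. The targets that count as measured differ with the floor. With no floor all 20 that had a probe set count, including those below the floor on both arrays. These values are therefore not all taken over the same genes. The number of all measured genes at least 2-fold lower was 86 of 11077. It was 1335 of 16210 with the lower floor, 1685 of 18193 with none and 13 of 6967 with the higher floor. It was 57 of 9769 for genes above the floor on both arrays, and 14 of 11077 at 3-fold. A lower floor or none also counts genes with signals near background as measured. No paired analysis was possible because each condition had 1 array.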
